A study of Mus musculus with 8 samples.

Results

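The genes described here are the axon guidance ligands and receptors of the mouse: the semaphorins and their plexin and neuropilin receptors, the Slits and their Robo receptors, and the netrins with the receptors Dcc, Neo1 and Unc5a to Unc5d. They were picked out by gene symbol, which gave 48 of the 24537 genes in the count table, 27 of them ligands and 21 receptors. The set itself was chosen with earlier results of these data known. RNA came from EpCAM+ cells sorted from single pancreatic tumours, and each of the 8 tumours gave 1 sequencing library. The 4 tumours labelled KO carried 2 floxed Lifr alleles (f/f). Lifr codes for the receptor of leukaemia inhibitory factor, and cells sorted from tumours labelled KO are compared with those from tumours labelled WT. Of the 4 tumours labelled WT, replicates 1 and 2 were Lifr f/+ and replicates 3 and 4 were Lifr +/+. Mice of both groups were FVB/NJ, 44 to 49 days old, and shared the KrasLSL-G12D/+ oncogene allele, floxed Trp53 (Trp53f/f), the Rosa26LSL-Luc reporter and Pdx1-Cre, a recombinase driven from a promoter of the pancreatic lineage. Cells that do not descend from that lineage keep their alleles whole. Nothing in the labels says whether mice shared a litter or a day of sorting.

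Axon guidance proteins steer growing nerve fibres and vessels, and many also act between epithelial, immune and stromal cells. Class 3 semaphorins are secreted and mostly bind a neuropilin, which holds the ligand, together with a plexin, which carries the signal into the cell. Membrane semaphorins can bind plexins directly and can also signal back into their own cell. Slits signal through Robo receptors, and netrins through Dcc and neogenin (attraction) or Unc5 receptors (repulsion). In human pancreatic cancer this gene family is known for recurrent mutations, above all in the Slit and Robo genes.

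Counts summed to between 14938875 and 22698340 per tumour. Values are CPM, counts scaled to a common library size with TMM factors, and are listed by replicate 1 to 4. Lifr itself was higher in the tumours labelled KO, at 182.8 ± 34.5 CPM against 97.7 ± 22.2 CPM in the tumours labelled WT (SD, n = 4 each, log2 fold change 0.90 ± 0.19, edgeR adjusted p = 0.0121). Which exon was floxed is not given in the sources used here, so the groups are called by their labels. Epcam, the antigen of the sort, was at 420.7 ± 57.7 CPM in KO and at 774.5 ± 96.4 CPM in WT tumours (SD, n = 4 each, log2 fold change −0.88 ± 0.13, edgeR adjusted p = 0.00519). Of 18 epithelial marker genes 14 were lower and none was higher in KO tumours, with 3755 to 5282 summed CPM in KO and 7108 to 9489 summed CPM in WT tumours. Of 14 macrophage marker genes 13 were higher and none was lower, with 22490 to 29280 summed CPM in KO and 8469 to 15460 summed CPM in WT tumours. In sorted bulk RNA, fewer cells of a type and less RNA per cell cannot be told apart.

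Of the 48 genes, 42 had enough counts to be tested. In KO tumours 7 rose, 6 fell and 29 did not pass the test (edgeR quasi-likelihood, Benjamini-Hochberg adjusted p under 0.05 over all 14728 genes tested). The rises were 16.7% of the tested members, beside 11.1% of all genes, and the falls were 14.3%, beside 10.8% of all genes. Together 31.0% of the members were called, beside 21.8% of all genes. The neuropilins Nrp1 and Nrp2, the plexins Plxnd1, Plxnc1 and Plxna1 and the semaphorins Sema4a and Sema6b were higher. The netrin receptors Neo1 and Unc5b, the plexin Plxnb1, the semaphorins Sema4f and Sema5a and the ligand Slit2 were lower. Among receptors 5 of 18 rose and 3 fell, and among ligands 2 of 24 rose and 3 fell. The median log2 fold change was −0.26 over the tested members and 0.01 over all genes tested. KO and WT tumours did not overlap for 14 members (33.3% of those tested, beside 25.5% of all genes), and 12 of these were called. Directions are those under TMM scaling, and scaling the libraries to the epithelial marker genes moves the median of all genes up to 0.87. That scaling moves all genes up by construction and calls 74.1% of them higher and 0.679% lower, beside 22 members higher (52.4%) and 0 lower, so that the 7 rises were called again with it is not read as support. On that scale Neo1 (0.016), Plxnb1 (0.21), Sema5a (0.43) and Slit2 (0.31) had log2 fold changes above 0 and Unc5b (−0.26) and Sema4f (−0.66) stayed below 0. All 6 were below that shifted median. A shift of all genes by a similar amount leaves them there, so this is not read as support for the falls either.

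**Figure D1:**
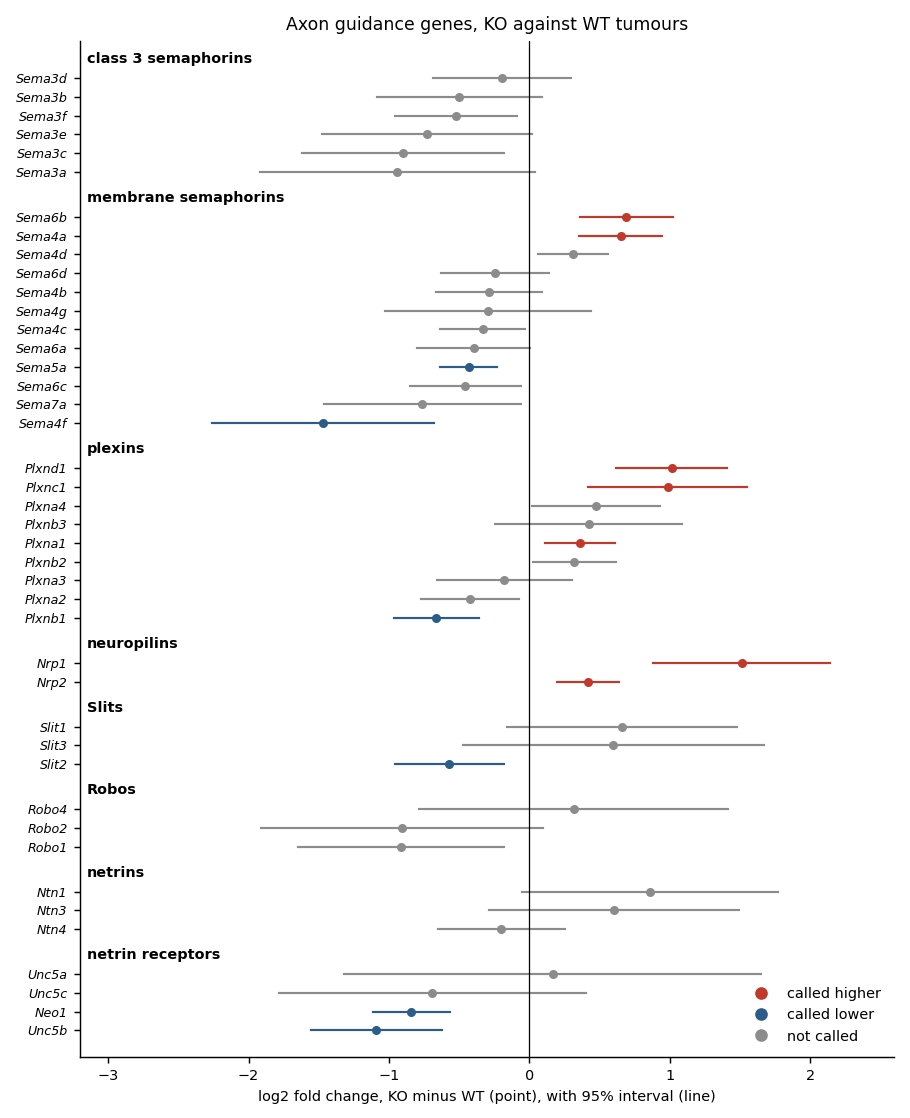
Log2 fold change (KO minus WT, points) with its 95% interval (lines) for the 42 tested axon guidance genes by family, under TMM scaling. The 7 genes called higher are red, the 6 called lower are blue (4 of these are above 0 with epithelial scaling) and the 29 not called are grey; no class 3 semaphorin, Robo or netrin is coloured.

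The sequence before each gene's start is shown for the 2 rises and the 2 falls with the smallest p among members whose counted transcript starts at a RefSeq promoter entry, because the members differed widely there. Capitals mark each CpG, the dinucleotide that can carry DNA methylation and is dense in CpG islands. Each run is the 250 bases before the start in RefSeq GRCm38.p6, written 5′ to 3′ on the gene's own strand. Plxnd1 is at chr6:115995006-115995255 (minus strand), Nrp1 at chr8:128358823-128359072 (plus), Neo1 at chr9:59036442-59036691 (minus) and Unc5b at chr10:60831582-60831831 (minus).
Plxnd1: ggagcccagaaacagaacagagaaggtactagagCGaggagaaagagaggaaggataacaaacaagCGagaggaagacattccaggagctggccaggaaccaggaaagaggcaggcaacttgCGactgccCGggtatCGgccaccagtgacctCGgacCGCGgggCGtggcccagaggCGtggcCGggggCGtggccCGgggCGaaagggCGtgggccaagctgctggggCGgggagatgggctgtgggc
Nrp1: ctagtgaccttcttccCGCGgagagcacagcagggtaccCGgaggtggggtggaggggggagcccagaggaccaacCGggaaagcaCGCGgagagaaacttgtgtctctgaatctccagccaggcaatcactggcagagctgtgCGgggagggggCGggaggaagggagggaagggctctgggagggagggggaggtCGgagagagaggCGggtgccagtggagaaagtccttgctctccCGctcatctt
Neo1: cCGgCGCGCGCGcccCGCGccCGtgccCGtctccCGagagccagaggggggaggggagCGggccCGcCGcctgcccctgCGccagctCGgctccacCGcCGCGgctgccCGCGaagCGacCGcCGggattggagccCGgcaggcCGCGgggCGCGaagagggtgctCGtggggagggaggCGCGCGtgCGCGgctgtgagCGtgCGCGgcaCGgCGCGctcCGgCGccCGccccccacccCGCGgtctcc
Unc5b: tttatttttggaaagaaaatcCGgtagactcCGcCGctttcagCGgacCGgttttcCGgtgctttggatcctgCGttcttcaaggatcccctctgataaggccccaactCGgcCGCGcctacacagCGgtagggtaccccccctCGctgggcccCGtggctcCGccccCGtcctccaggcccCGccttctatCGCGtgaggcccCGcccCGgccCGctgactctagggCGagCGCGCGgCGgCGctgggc
The promoters of the called rises held fewer CpG in this set, 16 for Plxnd1 and 11 for Nrp1, than those of the called falls, 45 for Neo1 and 27 for Unc5b. A promoter at the counted start was found for 30 of the 48 members. Their median was 16.5 CpG (2 to 45), beside 6 over all 32851 promoters of the same length. The 5 called rises with an entry had a median of 11 CpG (5 to 32) and the 6 called falls a median of 26 (4 to 45), so the ranges overlapped. Motifs were searched on both strands as letters only. The median share of G and C letters was 67.4% in the member promoters and 52.4% in all promoters. The motif shares were not adjusted for this, and their differences were not tested. The STAT motif TTCNNNGAA, of the class bound by factors that act after the LIF receptor, was in 0 of 30 member promoters and in 7.02% of all promoters. The TEAD motif CATTCC was in 3 of 30 (12.6% of all), that of Plxnd1 and Plxnb1 among them, and the E-box CAGGTG was in 4 of 30 (17.2% of all). The AP-1 motif TGANTCA was in 1 of 30 (6.75% of all), and the PU.1 motif GAGGAAGT was in 0 of 30 (2.44% of all).

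Both neuropilins rose in KO tumours. Nrp1, a co-receptor for class 3 semaphorins and for vascular endothelial growth factor (NM_008737, mm10 chromosome 8, 128359073 to 128505475, plus strand), was at 277, 368, 280 and 347 CPM in KO tumours. In WT tumours it was at 121, 120, 54.3 and 151 CPM. The lowest KO tumour lay far above the highest WT tumour, and the +/+ tumours held both the lowest and the highest WT value. The means were 317.9 ± 46.5 CPM in KO and 111.4 ± 40.6 CPM in WT (SD, n = 4 each). The log2 fold change of 1.51 ± 0.28 (SE) was the largest rise among the members (edgeR adjusted p = 0.00832). Nrp2, which prefers other class 3 semaphorins and the lymphatic growth factor VEGF-C (NM_001077404, chromosome 1, 62703317 to 62818692, plus strand), was at 143, 138, 130 and 134 CPM in KO and at 116, 87.4, 94.6 and 111 CPM in WT tumours. All KO values were above all WT values, and the KO tumours were close to each other. The log2 fold change was 0.42 ± 0.098 (edgeR adjusted p = 0.0190). Without KO replicate 1, KO replicate 2 or WT replicate 3 Nrp2 was no longer called (highest edgeR adjusted p = 0.0549), and with library totals as the only scaling its log2 fold change was 0.24 and not called (edgeR adjusted p = 0.0763).

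Plexins moved in both directions, with 3 of 9 higher, 1 lower and 5 not called. Plxnd1, a receptor of class 3 and class 4 semaphorins best known in vessel patterning (NM_026376, chromosome 6, 115954811 to 115995005, minus strand), was at 282, 409, 278 and 261 CPM in KO and at 188, 140, 128 and 154 CPM in WT tumours. KO and WT tumours did not overlap, and KO replicate 2 stood above its group. The means were 307 ± 68.4 CPM in KO and 152 ± 26.1 CPM in WT (SD, n = 4 each), a 2.02-fold difference (log2 fold change 1.01 ± 0.17, edgeR adjusted p = 0.00697). Plxnc1, a receptor of Sema7a found on many leukocytes (NM_018797, chromosome 10, 94790866 to 94944578, minus strand), was at 62.8, 83.9, 64.2 and 69.1 CPM in KO and at 48.3, 20.6, 29.4 and 43.4 CPM in WT tumours. No KO tumour reached down into the WT range, and the f/+ tumours held the highest and the lowest WT value. Its means were 70.0 ± 9.62 CPM in KO and 35.4 ± 12.7 CPM in WT (SD, n = 4 each), and the log2 difference was 0.98 ± 0.25 (edgeR adjusted p = 0.0243). The call was lost without KO replicate 2 or without WT replicate 3 (highest edgeR adjusted p = 0.0699).

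Plxna1, a receptor that pairs with neuropilins for class 3 semaphorins and binds class 6 semaphorins directly (NM_008881, chromosome 6, 89316314 to 89362613, minus strand), was at 274, 245, 223 and 206 CPM in KO and at 201, 173, 167 and 197 CPM in WT tumours. The lowest KO value was just above the highest WT value. Its log2 fold change of 0.36 ± 0.11 was the smallest among the rises (edgeR adjusted p = 0.0444). Leaving out any tumour other than KO replicate 4 ended the call (highest edgeR adjusted p = 0.118), and with library totals alone the log2 fold change was 0.18 (edgeR adjusted p = 0.187). Plxnb1, the receptor of Sema4d that activates RhoA through partner exchange factors (NM_172775, chromosome 9, 109095436 to 109119915, plus strand), was at 100, 77.1, 84.8 and 73.4 CPM in KO and at 115, 163, 127 and 126 CPM in WT tumours. The groups did not overlap. Its log2 fold change was −0.66 ± 0.13 under TMM scaling (edgeR adjusted p = 0.0111) and 0.21 with epithelial scaling.

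The most abundant plexin, Plxnb2, was at 462 ± 19.1 CPM in KO and 370 ± 68.0 CPM in WT tumours (SD, n = 4 each) and did not pass (log2 fold change 0.32, 95% interval 0.023 to 0.62, edgeR adjusted p = 0.114). Without WT replicate 2, the WT tumour with the highest Plxnb2, it passed at 0.45 (edgeR adjusted p = 0.0211), while the lowest leave-out value was 0.25, without WT replicate 3. Plxna2 was at 24.6 ± 4.34 CPM in KO and 33.0 ± 5.16 CPM in WT, Plxna3 at 27.2 ± 6.78 CPM in KO and 30.7 ± 6.34 CPM in WT, and Plxna4 at 32.1 ± 8.40 CPM in KO and 23.1 ± 4.70 CPM in WT (SD, n = 4 each). The groups overlapped for all 3, and none passed. Plxnb3, the scarcest plexin, ranged from 5.30 to 6.95 CPM in KO and from 2.33 to 5.89 CPM in WT tumours and did not pass.

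**Figure D2:**
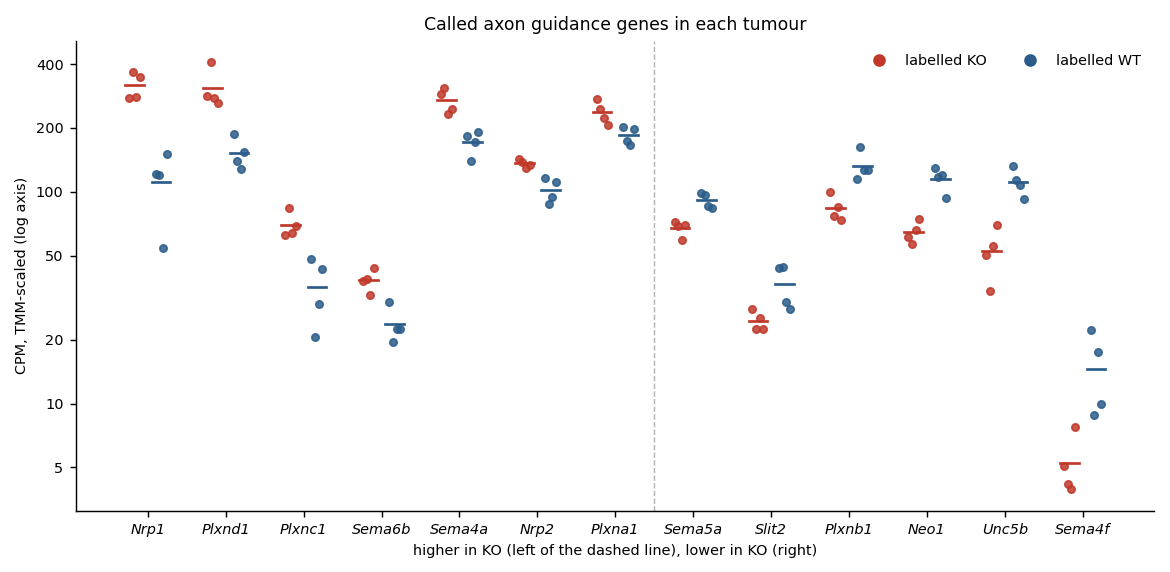
CPM (TMM-scaled, log axis) of the 13 called axon guidance genes in each tumour, KO red and WT blue, with a bar at the mean of 4 tumours. Slit2 is the called gene whose groups touch, with 28.1 CPM in KO replicate 1 and 28.0 CPM in WT replicate 4; of the 6 genes right of the dashed line, Neo1, Plxnb1, Sema5a and Slit2 have log2 fold changes above 0 with epithelial scaling.

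Membrane semaphorins also split, with 2 of 12 tested genes higher, 2 lower and 8 not called. Sema4a, a ligand of plexins of the B and D classes that acts on T cells and endothelium (NM_013658, chromosome 3, 88435962 to 88455761, minus strand), was at 289, 310, 233 and 246 CPM in KO and at 184, 139, 171 and 191 CPM in WT tumours. All KO tumours were above all WT tumours. The means were 269 ± 36.0 CPM in KO and 172 ± 23.0 CPM in WT (SD, n = 4 each), and the log2 difference was 0.65 ± 0.13 (edgeR adjusted p = 0.0109). Sema6b, a ligand of A-class plexins (NM_013662, chromosome 17, 56123085 to 56133852, minus strand), was at 37.9, 38.7, 32.7 and 43.7 CPM in KO and at 30.2, 19.6, 22.4 and 22.6 CPM in WT tumours. The groups did not overlap, and the log2 fold change was 0.69 ± 0.15 (edgeR adjusted p = 0.0125).

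Of the falls, Sema4f, a class 4 semaphorin of synapses and glia (NM_011350, chromosome 6, 82911885 to 82939769, minus strand), was the scarcest called member. It was at 5.10, 4.16, 3.95 and 7.76 CPM in KO and at 22.2, 8.84, 17.5 and 9.95 CPM in WT tumours. The groups did not overlap, but KO replicate 4 came close to WT replicate 2. It was 2.77-fold lower in KO, the largest fall among the members (log2 fold change −1.47 ± 0.35, edgeR adjusted p = 0.0192), and lost the call without KO replicate 1, 2 or 3 or without WT replicate 3 (highest edgeR adjusted p = 0.0607). Sema5a, which binds Plxna1 and Plxna3 (NM_009154, chromosome 15, 32244813 to 32696341, plus strand), was at 71.9, 69.2, 59.0 and 69.4 CPM in KO and at 98.5, 96.1, 85.7 and 83.7 CPM in WT tumours. Every KO tumour was below every WT tumour, and both f/+ tumours were above both +/+ tumours. Its log2 fold change was −0.43 ± 0.088 under TMM scaling (edgeR adjusted p = 0.0114), but 0.43 and called higher with epithelial scaling.

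Sema4d, the ligand of Plxnb1, was higher in every KO tumour, at 95.7 ± 8.48 CPM against 77.2 ± 10.4 CPM in WT (SD, n = 4 each), yet did not pass (log2 fold change 0.31, edgeR adjusted p = 0.0780). Sema6c was the other member whose groups did not overlap without a call, at 2.78 to 3.47 CPM in KO and 3.71 to 4.84 CPM in WT tumours. Sema7a, a membrane-anchored ligand of Plxnc1 and of integrins, was at 95.2, 46.3, 45.3 and 47.7 CPM in KO and at 82.9, 63.3, 125 and 127 CPM in WT tumours. KO replicate 1 lay inside the WT range and the other KO tumours below it. Sema7a did not pass (log2 fold change −0.76 ± 0.31, edgeR adjusted p = 0.112) but did without KO replicate 1 (−1.11, edgeR adjusted p = 0.0261), and its leave-out values reached down to −0.62.

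None of the other membrane semaphorins passed, and the groups overlapped for each. Sema4b was at 60.9 ± 14.3 CPM in KO and 74.2 ± 10.8 CPM in WT, Sema4c at 38.4 ± 6.04 CPM in KO and 48.5 ± 6.11 CPM in WT, and Sema4g at 30.5 ± 16.9 CPM in KO and 37.4 ± 6.53 CPM in WT (SD, n = 4 each). Sema6a was at 13.5 ± 1.75 CPM in KO and 17.7 ± 4.12 CPM in WT, and Sema6d at 19.5 ± 0.398 CPM in KO and 23.1 ± 5.76 CPM in WT (SD, n = 4 each). Sema4g was called lower without KO replicate 3, the KO tumour in which it was highest (−0.75, edgeR adjusted p = 0.0211), against −0.30 with all tumours and −0.14 without KO replicate 4. Sema4b passed without KO replicate 1 (−0.48, edgeR adjusted p = 0.0393), against −0.29 with all tumours and −0.19 without WT replicate 2.

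No class 3 semaphorin was called in the main edgeR test. An unadjusted edgeR p under 0.05 was found for 2 of the 6 tested, beside 5300 of all 14728 genes tested. The fold changes of all 6 class 3 genes were below 0 under TMM scaling (4 were above 0 with epithelial scaling). Their median log2 fold change was −0.63. Sema3c, a secreted ligand of both neuropilins, was at 50.5, 51.3, 56.4 and 105 CPM in KO and at 103, 192, 112 and 84.5 CPM in WT tumours. KO replicate 4 lay among the WT tumours and the other 3 KO tumours below all of them. The test gave a log2 fold change of −0.90 ± 0.32 (edgeR adjusted p = 0.0755), −1.24 without KO replicate 4 (edgeR adjusted p = 0.0207) and −0.60 without WT replicate 2 (edgeR adjusted p = 0.160). Sema3f, the main Nrp2 ligand of the class, was at 67.4 ± 11.8 CPM in KO and 96.8 ± 25.9 CPM in WT (SD, n = 4 each, edgeR adjusted p = 0.0825). Sema3e, which binds Plxnd1 without a neuropilin, was at 16.7 ± 4.26 CPM in KO and 27.7 ± 14.4 CPM in WT (SD, n = 4 each, edgeR adjusted p = 0.147). WT replicate 2 held the highest value of both genes, and without it the log2 fold change was −0.32 for Sema3f, against −0.52 with all tumours, and −0.30 for Sema3e, against −0.73 (edgeR adjusted p = 0.135 and 0.329). Sema3a, Sema3b and Sema3d ranged from 1.19 to 8.88 CPM in KO and from 4.93 to 10.9 CPM in WT tumours, and Sema3g was too scarce to test. In the main test the rise of Nrp1, Nrp2 and Plxnd1 stood beside secreted ligands that did not pass. This contrast depended on the processing. Sema3c and Sema3f were called lower with library totals alone (edgeR adjusted p = 0.0413 and 0.0317), with DESeq2 and with limma on FPKM. Nrp2 was not called with library totals or with limma on FPKM.

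Of 4 tested netrin receptors 2 fell, Neo1 and Unc5b, and 2 did not pass, and no netrin passed. Neo1, the netrin and RGM receptor neogenin (NM_008684, chromosome 9, 58874680 to 59036441, minus strand), was at 61.2, 56.4, 65.9 and 74.0 CPM in KO and at 130, 118, 120 and 93.4 CPM in WT tumours. The groups did not overlap. The means were 64.4 ± 7.5 CPM in KO and 115 ± 15.5 CPM in WT (SD, n = 4 each), with a log2 difference of −0.84 ± 0.12 and the smallest adjusted p among the members (edgeR adjusted p = 0.00451). Unc5b, a repulsive netrin receptor and dependence receptor (NM_029770, chromosome 10, 60762595 to 60831581, minus strand), was at 50.2, 33.9, 55.6 and 69.5 CPM in KO and at 132, 113, 108 and 92.1 CPM in WT tumours. Every KO tumour was below every WT tumour, and KO replicate 2 was lowest. It was 2.13-fold lower in KO (log2 fold change −1.09 ± 0.20, edgeR adjusted p = 0.00893). With epithelial scaling neither passed, and the log2 fold changes were 0.016 for Neo1 and −0.26 for Unc5b.

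Dcc, the attractive netrin receptor, was nearly absent, with 42 counts over all 8 tumours and at most 13 in any. Unc5a and Unc5c did not pass and stayed at or under 1.72 CPM in every tumour, and Unc5d had 6 counts in all. Ntn1, the best known netrin and a ligand of these receptors, was at 35.9, 42.8, 31.5 and 20.5 CPM in KO and at 13.4, 33.6, 8.42 and 16.5 CPM in WT tumours. The groups overlapped through WT replicate 2, and the test missed the threshold (log2 fold change 0.86 ± 0.40, edgeR adjusted p = 0.160). Without WT replicate 2 Ntn1 was called higher, at 1.36 (edgeR adjusted p = 0.0217), and without WT replicate 3 the value was 0.62 (edgeR adjusted p = 0.285). Ntn4, a netrin of basement membranes, was at 13.1 ± 3.52 CPM in KO and 15.1 ± 1.99 CPM in WT (SD, n = 4 each, edgeR adjusted p = 0.506). Ntn3 ranged from 0.515 to 1.43 CPM in KO and from 0.448 to 0.883 CPM in WT tumours and did not pass.

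Slits and Robos showed 1 call among 6 tested genes. Slit2, a secreted repellent (NM_001291227, chromosome 5, 47983155 to 48307736, plus strand), was at 28.1, 22.6, 25.5 and 22.5 CPM in KO and at 43.9, 44.3, 30.1 and 28.0 CPM in WT tumours. The 2 f/+ tumours were well above the KO tumours, whereas the +/+ tumours were near them. The log2 fold change was −0.57 ± 0.17 (edgeR adjusted p = 0.0446), and leaving out any KO tumour or either f/+ tumour ended the call (highest edgeR adjusted p = 0.120). Slit3 was at 34.9 ± 19.7 CPM in KO and 23.0 ± 11.1 CPM in WT (SD, n = 4 each), and Slit1 ranged from 2.13 to 6.78 CPM in KO and from 1.77 to 3.0 CPM in WT; neither passed. Robo1, a Slit receptor, was at 10, 7.70, 9.37 and 16.4 CPM in KO and at 30.8, 14.7, 23.5 and 13.2 CPM in WT tumours. KO replicate 4 overlapped the WT tumours, and Robo1 did not pass (log2 fold change −0.91 ± 0.32, edgeR adjusted p = 0.0766), although it did without KO replicate 4 (−1.19, edgeR adjusted p = 0.0346) or without WT replicate 4 (−1.07, edgeR adjusted p = 0.0482). Without WT replicate 1 it was at −0.65 (edgeR adjusted p = 0.183). Robo2 and Robo4, the endothelial Robo, stayed at or under 1.57 CPM in every tumour, and neither passed.

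The remaining 6 members could not be tested. Sema3g, Sema5b, Robo3, Ntn5, Dcc and Unc5d had between 0 and 27 counts in any tumour, and 5 members in all had no count in at least 1 tumour. A count of 0 allows up to 3 counts, which is 0.134 to 0.208 CPM in these libraries.

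Levels of different genes can be compared only per transcript length, for which the authors' deposited FPKM values (fragments per kilobase, scaled to library size) were used. Among plexins the order of the mean FPKM was Plxnb2 (37.5 in KO and 34.2 in WT), Plxnd1 (23.4 in KO and 13.1 in WT) and Plxna1 (13.8 in KO and 12.1 in WT). Plxnc1 (5.23 ± 0.763) and Plxnb1 (5.12 ± 0.617) were side by side in KO tumours within their SDs, whereas in WT tumours Plxnb1 (9.21 ± 1.87) was above Plxnc1 (2.96 ± 0.985; SD, n = 4 each). Plxnd1 made up 23.5% to 32.0% of the summed plexin FPKM in KO and 14.1% to 21.0% in WT tumours, and Plxnb1 4.83% to 6.69% in KO and 10.3% to 13.1% in WT tumours. Neither share overlapped between the groups, and nor did those of Plxna2 (1.03% to 1.63% in KO and 1.79% to 2.6% in WT) and Plxna3 (1.59% to 2.71% in KO and 2.88% to 3.99% in WT), which were not called and whose CPM overlapped. Nrp1 was at 28.2 ± 4.32 FPKM in KO and 11.2 ± 4.08 FPKM in WT, and Nrp2 at 10.7 ± 0.165 FPKM in KO and 9.02 ± 0.907 FPKM in WT (SD, n = 4 each), so in WT tumours the neuropilins were closer than the SD of Nrp1.

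FPKM carry no TMM factor, and on log2(FPKM + 1) the median of all genes was −0.11 in KO minus WT, so FPKM lean lower in KO than the CPM above. Summed over a family, neuropilin FPKM was 34.2 to 43.7 in KO and 13.6 to 24.5 in WT tumours, and netrin receptor FPKM was 7.19 to 11.6 in KO and 16.8 to 23.4 in WT tumours. Class 3 semaphorin FPKM summed to 17.8 to 22.8 in KO and to 28.4 to 57.5 in WT tumours. These 3 sums did not overlap between the groups, although no class 3 gene was called in the main test on counts. The sums of membrane semaphorins (87.9 to 103 in KO and 93.6 to 106 in WT) and plexins (83.0 to 98.0 in KO and 66.6 to 90.9 in WT) did overlap. Sema4a was the most abundant semaphorin, at 45.8 ± 5.44 FPKM in KO and 32.8 ± 3.30 FPKM in WT (SD, n = 4 each). Among class 3 genes Sema3f (10.6 ± 1.91 in KO and 17.4 ± 5.52 in WT) and Sema3c (6.996 ± 2.82 in KO and 14.92 ± 6.53 in WT) led in FPKM and were within their SDs of each other in WT. The 2 netrin receptors that were well detected were close in both groups, with Unc5b at 4.69 ± 1.35 FPKM in KO and 11.3 ± 1.70 FPKM in WT and Neo1 at 4.62 ± 0.603 FPKM in KO and 9.37 ± 1.31 FPKM in WT (SD, n = 4 each). The counts and FPKM used the same transcript for 35 of the 48 members, and another for 13, Sema4a, Sema4f, Nrp2 and Neo1 among the called.

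**Figure D3:**
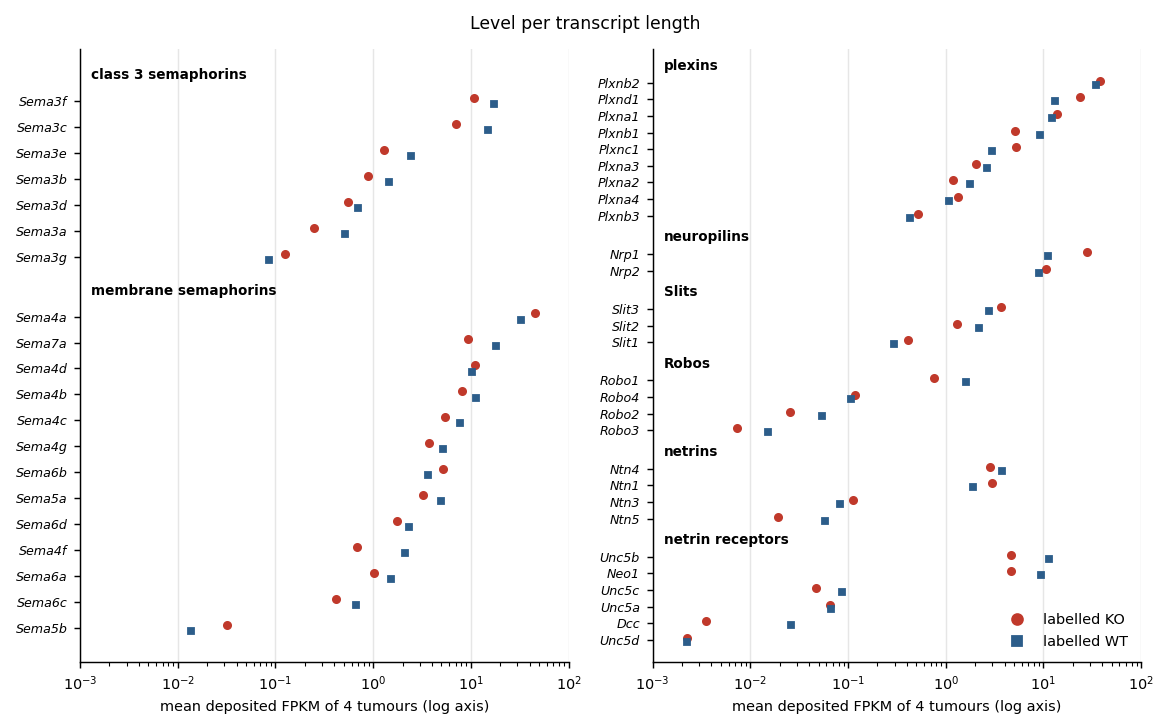
Mean deposited FPKM (log axis) of each axon guidance gene in the 4 KO tumours (red circles) and 4 WT tumours (blue squares), by family. Sema4a, Plxnb2 and Nrp1 are the most abundant ligand, plexin and neuropilin, and Dcc, Unc5d, Robo2 and Robo3 lie at the low end.

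The WT tumours held 2 Lifr genotypes, so the 3 genotypes were also fitted together (44 members tested). Between f/+ and +/+ tumours 1 gene of 15284 was called (0.00654%) and it was no member. An unadjusted edgeR p under 0.05 was found for 3 of the 44 members (Plxnb3, Sema6a and Slit2), beside 782 of all 15284 genes. Against f/+ tumours 4 members rose and 6 fell in f/f tumours (13.3% of all genes called), and against +/+ tumours 2 rose and 1 fell (6.79% called). Both comparisons use the same f/f libraries. Nrp1 had a log2 fold change of 1.40 against f/+ and 1.64 against +/+, Plxnd1 of 0.91 against f/+ and 1.13 against +/+, and Neo1 of −0.94 against f/+ and −0.73 against +/+. These 3 were called in both (highest edgeR adjusted p = 0.0455). Slit2 differed by −0.84 against f/+ (edgeR adjusted p = 0.0151) and by −0.23 against +/+ (edgeR adjusted p = 0.246), while f/+ exceeded +/+ by 0.60 (edgeR adjusted p = 0.864). In separate fits with only the 2 +/+ tumours as controls, Nrp1 kept its size but not its call (1.64, edgeR adjusted p = 0.0550). Sema4a, Unc5b and Sema5a lost their calls in that fit too (edgeR adjusted p = 0.0608, 0.0671 and 0.0891), and so did Slit2. With only the 2 f/+ tumours as controls, Plxnc1 and Sema6b lost theirs (edgeR adjusted p = 0.0879 and 0.0908), and in both fits Nrp2, Plxna1 and Sema4f were not called.

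The members are one layer of the pathway, so 66 partners were counted as well: co-receptors and alternative partners, and intracellular effectors. Of 64 tested, 10 rose and 20 fell (15.6% and 31.2%, beside 11.1% and 10.8% of all genes), with a median log2 fold change of −0.23. The co-receptors gave 4 rises and 6 falls of 26, and the effectors 6 rises and 14 falls of 38. Srgap2, an effector of Robo receptors, was at 133.8 ± 7.46 CPM in KO and 82.7 ± 9.99 CPM in WT (SD, n = 4 each, log2 fold change 0.69, edgeR adjusted p = 0.00440), and Fes, a kinase that acts after plexins, rose by 0.66. Nck1, an adaptor, rose by 0.54, and Adora2b, a receptor reported to join netrin signalling, by 1.61. The kinase Limk2, which acts on cofilin, fell by 0.70, Farp1, a plexin-linked exchange factor, by 0.82, Ptk7, a plexin-linked pseudokinase, by 0.99, and Erbb2, a kinase that associates with B-class plexins, by 0.91 on the log2 scale. With epithelial scaling 37 partners (57.8% of those tested, beside 74.1% of all genes) were called higher and 0 lower.

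Macrophage and epithelial marker genes also differed between the groups, while the other lists gave few calls or none. The 7 rises and 6 falls of the members stood beside 13 of 14 macrophage genes higher, Ccr2 and Itgam among them. Ccr2 was at 689.5 ± 144.6 CPM in KO and 169.9 ± 51.6 CPM in WT (SD, n = 4 each, log2 fold change 2.02, edgeR adjusted p = 0.00440). Itgam was at 1114 ± 101.1 CPM in KO and 408.9 ± 123.2 CPM in WT (SD, n = 4 each, log2 fold change 1.45, edgeR adjusted p = 0.00451). The same rises and falls also stood beside 14 of 18 epithelial genes lower, such as Dsp (220.9 ± 8.80 CPM in KO and 365.6 ± 52.5 CPM in WT, SD, n = 4 each). The part of these cell types in the results was not tested, and no member was assigned to a cell type. Of 12 fibroblast genes 2 were higher (Dpt and Fap), with 799.9 to 4321 summed CPM in KO and 427.5 to 1565 in WT, and no endothelial gene of 9 tested was called, with 35.4 to 48.7 summed CPM in KO and 31.4 to 61.5 in WT. The 13 tested acinar genes gave no call, but their sum ranged widely, from 1909 to 44410 CPM in KO and from 433.3 to 9049 CPM in WT tumours. Neither the islet, pericyte nor lymphocyte genes gave a call. Among neuron markers 1 of 5 tested fell (Stmn2), with Elavl3 and Th among the markers at 0 in at least 1 tumour, and among Schwann cell and glial markers 1 of 5 fell (S100b), with Sox10, Gfap, Cdh19 and Foxd3 at 0 in at least 1.

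**Figure D4:**
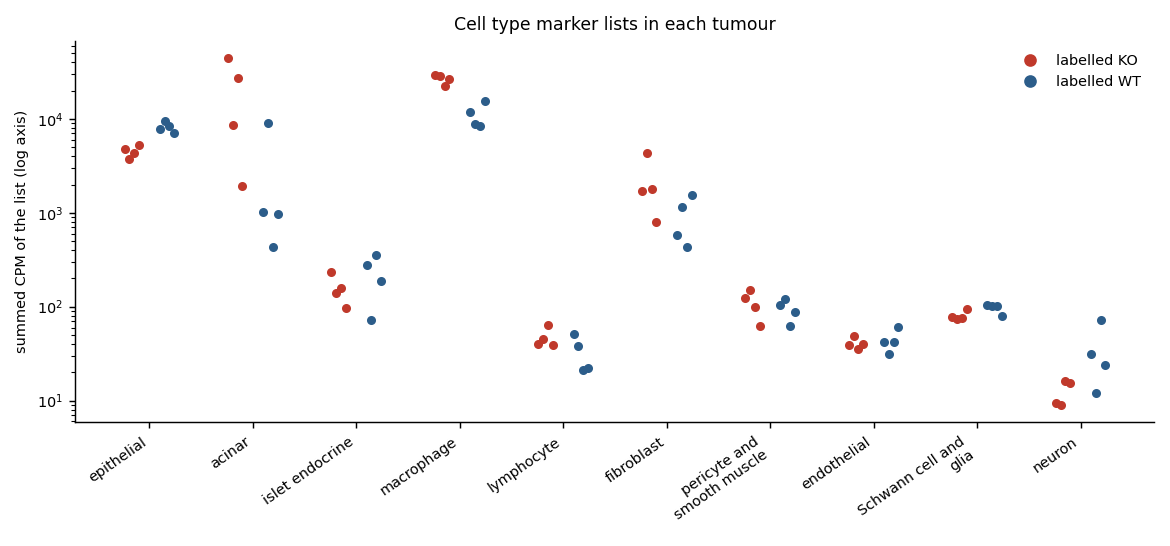
Summed CPM (log axis) of each cell type marker list in each tumour, KO red and WT blue. The epithelial sums are 3755 to 5282 in KO and 7108 to 9489 in WT, and the macrophage sums 22490 to 29280 in KO and 8469 to 15460 in WT, each without overlap; the other lists overlap.

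Across the ways of processing, 8 of the 13 calls held with each single tumour left out, while Nrp2, Plxnc1, Plxna1, Sema4f and Slit2 lost theirs without at least 1 tumour. Leaving out the tumour richest in acinar RNA from each group (KO replicate 1 and WT replicate 2) ended the calls of Nrp2, Plxna1, Sema6b and Slit2 (edgeR adjusted p = 0.0725, 0.182, 0.0556 and 0.109). That fit also gained calls, with Ntn1 and Plxnb2 higher (edgeR adjusted p = 0.0498 and 0.0471) and Sema4b, Sema4c and Sema7a lower. In all it called 6 members higher and 8 lower. Neo1, Plxnd1, Plxnb1, Nrp1, Sema4a, Sema5a, Sema6b and Unc5b were the genes called with each single tumour left out. Their log2 fold changes there included −0.93 to −0.78 for Neo1, 0.85 to 1.13 for Plxnd1, −0.77 to −0.55 for Plxnb1 and 1.29 to 1.69 for Nrp1. The counts behind the called genes ran from 57 to 7414 per tumour. Exons of 8 members overlap those of another annotated gene in GENCODE M21, among them Plxna1 (970 bases, with Gm26811) and Plxnb1 (257 bases, with Gm7628) on the opposite strand. The sources used here do not say whether the libraries kept strand, and reads of such pairs cannot be told apart without it.

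**Figure D5:**
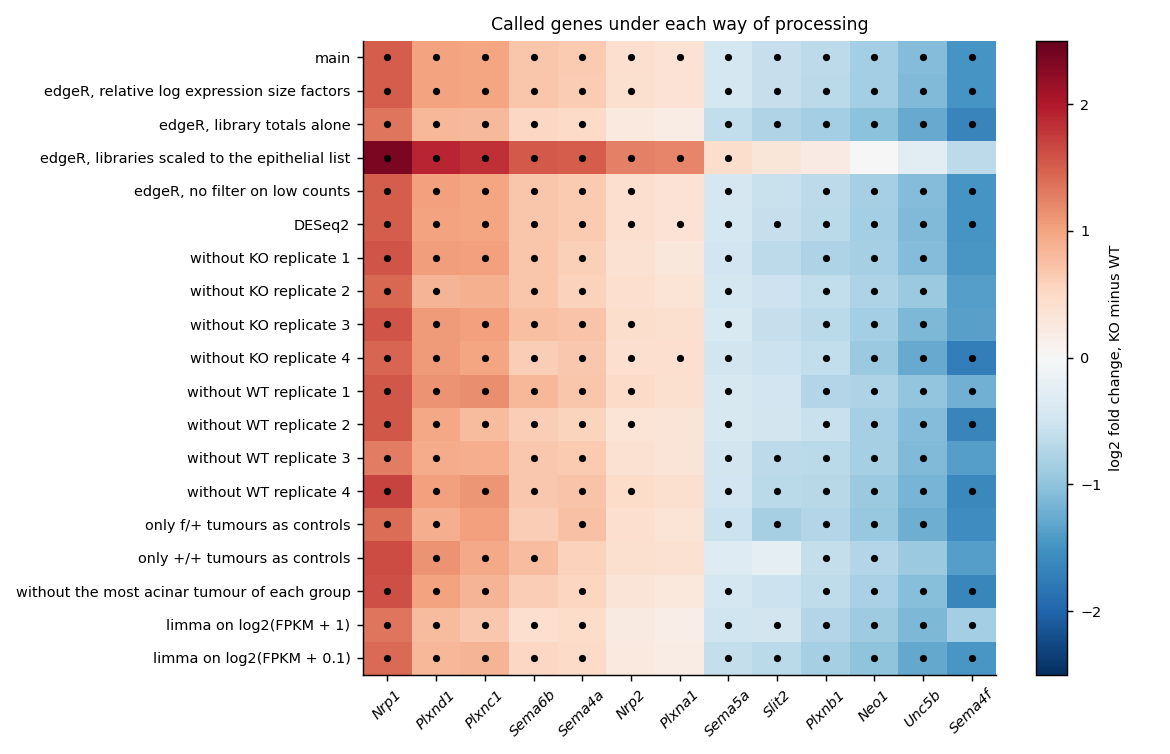
Log2 fold change (colour, KO minus WT) of the 13 called genes under each way of processing, with a black dot where the adjusted p was under 0.05. Epithelial scaling shifts all columns up and turns Neo1, Plxnb1, Sema5a and Slit2 above 0; the row of +/+ controls alone has the fewest dots.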

How the data were processed

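RNA of EpCAM+ sorted tumour cells was sequenced, 1 library per tumour. Groups follow the titles and genotypes; replicate numbers follow listing order and pair nothing. Listed in the submitters' processing notes are mm10, edgeR 3.6.8, HOMER, STAR 2.4.0k and FastQC 0.11.2. Per the file headers, the deposited counts are raw tags in exons of 1 RefSeq transcript per gene, and the deposited FPKM values are per kilobase of the kept transcript.

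Counts were tested by edgeR 4.0.16 under R 4.3.3 (TMM, filterByExpr with minimum count 10 and total 15, glmQLFTest, two-sided, Benjamini-Hochberg over all genes). CPM are TMM-scaled (factors 0.890 to 0.965 in KO, 1.05 to 1.10 in WT). Alternatives used limma 3.58.1 and DESeq2 1.42.0, other scalings, no filter, each tumour left out, 1 control genotype, and the most acinar tumour of each group left out. P-values measure the spread between these tumours, and intervals of counts cover counting error only.

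The members and lists were chosen with earlier results of these data known. Every member is accounted for: called members by tumour, others at 10 CPM or more by mean and SD, and the rest by range. Up to 4 called partners per direction and 2 markers per list with the smallest p are named. Promoters are from RefSeq GRCm38.p6 (39 of 48 members matched), exon overlaps from GENCODE M21. 1 marker gene is not reported here.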

Additional observations from a re-analysis of the deposited data

Results flagged for a closer look

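Of 84 groups of 4 tumours (42 tested genes in 2 groups), 7 held a tumour far from the other 3 by Dixon's test, which flags about 1 in 20 groups by chance. Sema3c was at 105 CPM in KO replicate 4 (50.5 to 56.4 in the other KO tumours), and Sema4g at 55.6 CPM in KO replicate 3 (19.1 to 24.0). Sema7a was at 95.2 CPM in KO replicate 1 (45.3 to 47.7), and Plxnd1 at 409 CPM in KO replicate 2 (261 to 282). Sema3f was at 135 CPM in WT replicate 2 (81.1 to 85.9 in the other WT tumours), Robo4 at 1.24 CPM in WT replicate 4 (0.448 to 0.573), and Unc5c at 0.312 CPM in WT replicate 1 (1.66 to 1.72). Each of the 7 was in a different tumour. Without the tumour in question, Sema3c, Sema4g, Sema7a and Unc5c were called lower (edgeR adjusted p = 0.0207, 0.0211, 0.0261 and 0.0399), and Plxnd1 stayed called. Sema3f was at −0.32 on the log2 scale (edgeR adjusted p = 0.135) and Robo4 at 0.73 (edgeR adjusted p = 0.302), neither of them called. The tumours left out were picked on these same values. For Sema3c, Sema4g, Sema7a and Unc5c the tumour differed from its group in the direction of the other group. Leaving it out widens the difference by construction, so the calls gained are not read as support.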

How the results depend on the processing

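No paired analysis was possible because the labels give no replicate numbers that the groups share. Of 747 fold changes of members recomputed under the alternatives, 624 kept direction and side of the threshold, 50 lost a call, 48 gained one and 25 changed sign, 19 of these with epithelial scaling. Epithelial scaling moves all genes up by construction (median log2 fold change of all genes 0.87). The cause of the other changes was not tested. Members called higher (7) came to 4 to 8 with each tumour left out, and those called lower (6) also to 4 to 8. Members called higher were 22 with epithelial scaling, 3 with f/+ controls alone and 3 with +/+ controls alone. Members called lower were 14 with library totals, 0 with epithelial scaling, 11 with DESeq2, 2 with +/+ controls alone, and 11 (pseudocount 1) or 12 (0.1) with limma on FPKM. Over all genes, called higher (1630) came to 900 with library totals, 10913 with epithelial scaling, 1019 with f/+ controls, 514 with +/+ controls, 928 without the most acinar tumour of each group, 875 and 886 with FPKM, and 918 to 1649 with a tumour left out. Called lower (1586) came to 3108, 100, 907, 592, 964, 2807 and 2862 in the same order, and 837 to 1592 with a tumour left out. Library totals moved the median of all genes to −0.17 and put 22.5% of calls above 0, beside 50.7%. Partners called higher (10) came to 6 with library totals, 37 with epithelial scaling, 6 with f/+ controls, 3 with +/+ controls, 4 without the acinar tumours, 6 with FPKM, and 7 to 8 with a tumour left out. Partners called lower (20) came to 0 with epithelial scaling, 5 with +/+ controls and 10 to 17 with a tumour left out. With epithelial scaling the log2 fold changes that turned above 0 were Neo1 0.016, Ntn4 0.62, Plxna2 0.46, Plxna3 0.72, Plxnb1 0.21, Sema3b 0.42, Sema3d 0.69, Sema3e 0.16, Sema3f 0.39, Sema4b 0.58, Sema4c 0.50, Sema4g 0.61, Sema5a 0.43, Sema6a 0.48, Sema6c 0.41, Sema6d 0.61, Sema7a 0.053, Slit2 0.31 and Unc5c 0.18. With a tumour left out Robo4 ranged from −0.12 (without KO replicate 2) to 0.73 and Unc5a from −0.29 to 0.53. Unc5a turned to −0.019 with library totals, −0.29 without KO replicate 1, −0.17 without KO replicate 3, −0.047 without WT replicate 2 and −0.025 with +/+ controls. No called gene changed sign outside epithelial scaling. Genes under about 1 CPM, such as Robo2 and Unc5a, are limited by depth.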
